A study of Mus musculus with 8 samples.

Results

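The cells described here are mouse macrophages in culture whose RNA held transcripts of the DNA replication machinery but few transcripts of mitosis. They were chosen by 18 genes: a cell was taken when at least 3 of the 8 replication genes Mcm3, Mcm5, Mcm6, Pcna, Rrm2, Tyms, Hells and Uhrf1 had a UMI (a molecule counted by its own tag) and fewer than 3 of the 10 mitotic genes Top2a, Mki67, Cenpf, Prc1, Nusap1, Ccna2, Knl1, Cenpe, Kif11 and Aspm did. The rule took 335 of 5218 kept cells (6.42%), and these 335 held 14.0% of the UMIs of the kept cells. They are called replication-gene cells below, by the rule, because the working name of S-phase cells without mitotic transcripts held only in part: 93 of them (27.8%) had no UMI of the 10 mitotic genes, 125 (37.3%) had 1 such gene and 117 (34.9%) had 2. The comparison classes were 1267 cells with no UMI of any of the 18 genes, and 698 mitotic-class cells with at least 3 of the 10 mitotic genes. The other 2918 kept cells fell in no class.

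The source was bone marrow from the hind limbs of 10-week-old male C57Bl/6J mice, grown for 3 days with M-CSF, the growth factor that turns marrow precursors into macrophages. Cells then spent another 24 hours either without addition (control, 4 libraries) or with Cyr61 at 4 µg/mL (CYR61, 4 libraries). CYR61, also named CCN1, is a matricellular protein, secreted into the matrix around cells and bound by integrins. All 8 libraries thus share the M-CSF culture, detachment with accutase and capture in HIVE microwell arrays, and the culture holds whatever marrow cells survive in M-CSF. The series' title ties the protein to fibrosis in fatty liver disease and to SYK, NFκB and PDGF signalling in monocyte-derived macrophages. The labels do not say whether the 4 libraries of a group came from separate mice or cultures, so p-values measure the spread between these libraries, which may be technical.

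Macrophages differ from many mature blood cells in that they can divide, and M-CSF acting through its receptor Csf1r drives their entry into the cycle by way of D-type cyclins. Entry into S phase turns on genes controlled by E2F factors: the MCM helicase that is loaded on origins, the sliding clamp PCNA, the enzymes that make deoxynucleotides, and factors that copy chromatin marks. Later, in G2 and mitosis, another set rises through the DREAM and B-MYB complexes, which bind a short element known as the CHR, and that set includes topoisomerase II alpha, mitotic kinesins and kinetochore proteins. Transcripts of the first set persist while the second rises, so the 2 sets are not exclusive in a cycling cell.

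The promoters of the rule's genes are shown because the members were chosen through these 2 sets of genes. Upstream sequence was available in RefSeq (build GRCm38.p6) for all 8 replication genes and 9 of the 10 mitotic genes, and each 300-base window, from 250 bases before the start to 50 after it, was searched on both strands. The E2F-type letters TTTCCCGC, TTTGGCGC, TTTCGCGC or TTTGCCGC occurred for 5 of the 8 replication genes (62.5%) and 0 of the 9 mitotic genes, against 2.60% of 27025 genes. The CHR-type letters TTTGAA occurred for 0 of the 8 and for 7 of the 9 (77.8%), against 20.2% of all genes. The lists fixed for other genes of the 2 programmes gave 6 of 14 origin licensing genes with E2F-type letters and 5 with CHR-type letters (35.7%), and 29 of 37 further mitosis genes with CHR-type letters and 5 with E2F-type letters (13.5%). A match is a run of letters and not a shown binding site. The 100 bases just upstream of the start are given 5′ to 3′ on the gene's strand for 2 genes of each set, with the matching letters in capitals (TTCAAA is TTTGAA on the other strand).
Mcm6, a helicase subunit (chr1:128359706-128359805, minus strand, match 47 bases before the start): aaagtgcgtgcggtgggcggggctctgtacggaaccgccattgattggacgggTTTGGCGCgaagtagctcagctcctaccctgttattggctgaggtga
Hells, a chromatin remodeller (chr19:38930890-38930989, plus strand, match 62 bases before the start): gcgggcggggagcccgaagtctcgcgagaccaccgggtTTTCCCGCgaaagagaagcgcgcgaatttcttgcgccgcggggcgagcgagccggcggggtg
Top2a, topoisomerase II alpha (chr11:99024190-99024289, minus strand, match 23 bases before the start): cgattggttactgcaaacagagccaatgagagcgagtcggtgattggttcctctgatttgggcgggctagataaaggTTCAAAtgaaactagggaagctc
Kif11, a spindle kinesin (chr19:37376282-37376381, plus strand, match 19 bases before the start): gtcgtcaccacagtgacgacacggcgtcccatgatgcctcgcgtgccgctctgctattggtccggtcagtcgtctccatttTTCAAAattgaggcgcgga

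The 8 tables held 40000 barcodes and 46785319 UMIs, between 1379637 and 16318946 per library. Barcodes recurred between libraries that carry the same date, and a kept cell was assigned to the library where it had most UMIs, which removed 2755 of 7973 cells. The loss was uneven, from 14 of 495 cells in control library 1 to 1308 of 1474 in control library 2. Control library 2 thus had 10 replication-gene cells, against 61 with every barcode counted. Of the 335 replication-gene cells, 283 (84.5%) were listed in another library of their date as well. The comparisons of CYR61 with control are therefore also given, in the closing section, with every barcode counted wherever it appeared. The comparisons between classes were not run that way. Xist RNA stood at 1173 to 1271 CPM (counts scaled to the total UMIs of the cells summed) in control libraries 2 and 3 and CYR61 libraries 1 and 2, and Y-linked RNA at 333 to 413 CPM in the other 4, although all 8 are labelled male. Each group holds 2 libraries of each kind. Scrublet called 2 of the 335 cells doublets, which stayed in the data.

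Within the replication-gene cells, Pcna, the sliding clamp of the replication fork, was detected in 93.7% of cells. Subunits of the MCM helicase followed, with Mcm6 in 71.9%, Mcm3 in 61.2% and Mcm5 in 34.3%. Hells, a remodeller that helps to keep DNA methylated, was detected in 37.3%, and Uhrf1, which guides maintenance methylation to new DNA, in 18.8%. Of the enzymes of deoxynucleotide supply, Rrm2 of ribonucleotide reductase was detected in 21.5%. Thymidylate synthase, Tyms, was the least often seen of the 8 genes, in 14.9%. The pair Mcm6 and Pcna was shared by 224 cells (66.9%), Mcm3 and Pcna by 192 and Mcm3 and Mcm6 by 146. These values chose the cells and are a description.

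**Figure D1:**
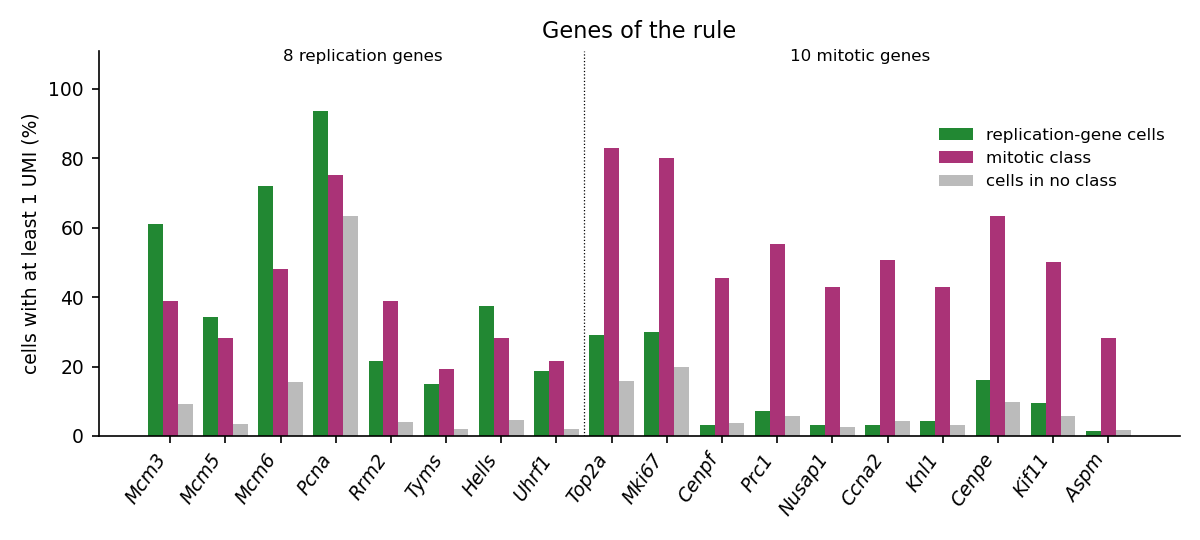
Percentage of cells with at least 1 UMI (vertical axis) for each of the 18 genes of the rule, in the 335 replication-gene cells (green), the 698 mitotic-class cells (purple) and the 2918 cells in no class (grey). Pcna is seen in 93.7% of the replication-gene cells and 63.3% of cells in no class, while Top2a is seen in 29.0% of the replication-gene cells and 83.1% of the mitotic class.

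The rule is a threshold, and most cells lay close to it. Of the 335, 213 had exactly 3 of the 8 replication genes, 78 had 4, 34 had 5, 7 had 6, 2 had 7 and 1 had all 8. Just outside it, 673 cells had 2 of the 8 with fewer than 3 mitotic genes, at a median of 6575 UMIs against 9788 in the 213 cells just inside. On the other border, 83 cells had at least 3 replication genes and exactly 3 mitotic genes, and in all 342 cells passed both thresholds and were placed in the mitotic class. The mitotic class also held more replication-gene RNA per UMI than the cells chosen for it. Over all cells of a class, Pcna stood at 327 CPM in the mitotic class and 291 CPM in replication-gene cells, Mcm6 at 134 and 99.0 CPM, and Rrm2 at 122 and 19.5 CPM. Control library 2 was an exception: its 8 replication genes summed to 742 CPM in the mitotic class and 1021 CPM in replication-gene cells.

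The chosen cells were the deepest of the kept cells. Their median was 10563 UMIs and 3710 genes, against 1506 UMIs and 824 genes in cells with none of the 18 genes and 6531.5 UMIs and 2755 genes in the mitotic class. A gene is seen more readily in a deep cell, so the share of cells that met the rule rose with depth, from 1.11% of cells under 2000 UMIs to 23.0% of cells at 20000 UMIs or more. When every cell was thinned to 1000 UMIs, 25 of the 335 still met the rule. Classes were assigned anew after thinning, and 26 cells of CYR61 library 2 alone then met it. Some of the thinned replication-gene cells therefore came from the mitotic class, having lost mitotic UMIs. Depth therefore moves with membership in every comparison with cells that lack the 18 genes, and values from cells of at least 5000 UMIs or of 2000 to 6000 UMIs are given beside those results.

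**Figure D2:**
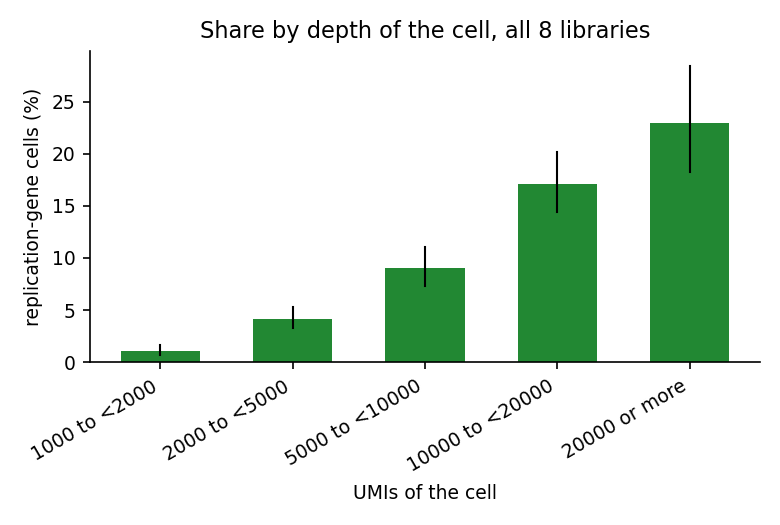
Percentage of kept cells that met the rule (vertical axis, bars from 0) in 5 classes of UMIs per cell (horizontal axis), for the cells of all 8 libraries pooled, with 95% Wilson intervals, which cover counting error only, as lines. The share is 1.11% in the class of fewest UMIs, 9.02% in cells of 5000 to under 10000 UMIs and 23.0% in the deepest cells.

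Between 0.515% and 9.40% of the kept cells of a library were replication-gene cells, and the groups overlapped. In the controls the share was 3.95% in library 1 (19 of 481 cells, 95% Wilson interval 2.54 to 6.09%), 6.02% in library 2 (10 of 166, 3.30 to 10.7%), 9.40% in library 3 (14 of 149, 5.68 to 15.2%) and 1.36% in library 4 (3 of 221, 0.463 to 3.91%). With CYR61 it was 7.70% in library 1 (86 of 1117, 6.28 to 9.41%), 7.19% in library 2 (179 of 2488, 6.24 to 8.28%), 0.515% in library 3 (1 of 194, 0.0911 to 2.86%) and 5.72% in library 4 (23 of 402, 3.84 to 8.44%). Intervals cover counting error only. The highest and the lowest share were thus a control and a CYR61 library of the same, later date stamp, and the largest numbers of cells came from CYR61 libraries 1 and 2. The means were 5.18% ± 3.40 (SD, n = 4) and 5.28% ± 3.29 (SD, n = 4), a difference of 0.101 percentage points that was smaller than the SD of either group (two-sided exact permutation test over 70 assignments, p = 0.971, smallest possible p 0.0286). Within the earlier date stamp the difference was 2.46 percentage points, and within the later one it was -2.26, with 2 libraries a group in each.

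The balance between replication-gene and mitotic-class cells also ranged widely within a group. The ratio of replication-gene to mitotic-class cells was 0.792, 0.196, 1.17 and 0.188 in control libraries 1 to 4 and 0.593, 0.422, 0.125 and 1.28 in CYR61 libraries 1 to 4. The lowest and the highest ratio both belonged to the CYR61 group. The difference of the log2 ratios was 0.06 (exact two-sided permutation test, n = 4 and 4, p = 0.914, adjusted over 3 tests 0.971). The percentage of mitochondrially encoded UMIs was the third measure: its median was 6.16 ± 2.94 in replication-gene cells and 11.6 ± 2.52 in cells with none of the 18 genes (SD, n = 6), lower in 6 of 6 libraries (exact sign-change test, p = 0.0312, adjusted 0.0938).

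**Figure D3:**
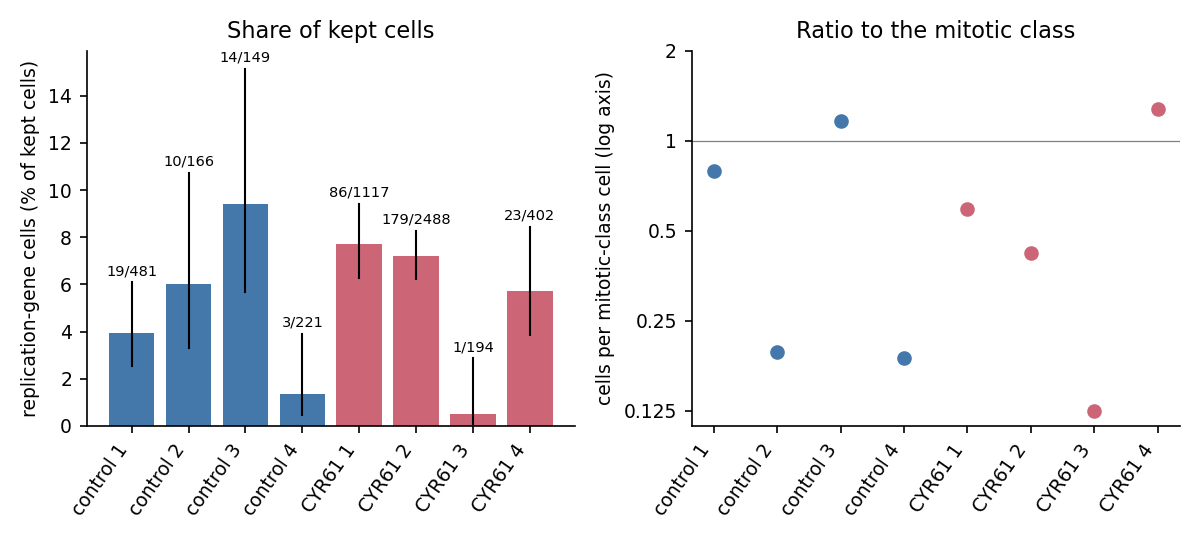
Left, replication-gene cells as a percentage of kept cells (bars from 0) in each library, with 95% Wilson intervals as lines and the cell numbers above them. Right, replication-gene cells per mitotic-class cell on a log axis, where the line marks 1 cell per cell. Control (blue) and CYR61 (red) libraries overlap in both panels.

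The chosen cells carried the RNA of mature macrophages. All 25 genes of a mature macrophage list were detected, among them the M-CSF receptor Csf1r at 469.6 ± 66.0 CPM and F4/80, Adgre1, at 565 ± 100.5 CPM (mean ± SD over the 6 libraries with at least 10 replication-gene cells). The list summed to 45729.7 to 54535 CPM per library, against 53556 to 70286 CPM in cells with none of the 18 genes and 41247 to 47123 CPM in the mitotic class. Lists of lymphoid, mast and stromal markers were near 0: the summed level per library was 0 to 2.08 CPM for T and NK cells (7 of 10 genes at 0, Cd3e and Trac among them), 0 to 2.60 CPM for mast cells and basophils and 0 to 9.28 CPM for stroma and endothelium. The B cell list reached 34.8 and 38.8 CPM in control libraries 1 and 3 and at most 5.75 CPM in the other 4, with Cd79a and Ms4a1 at 0. Lists of related myeloid cells were detected: the monocyte list summed to 984 to 1582 CPM, the myeloid progenitor list to 331 to 890 CPM, and the list of dendritic and MHC class II genes to 97.1 to 146 CPM in the controls and 230.1 to 493 CPM with CYR61, with Flt3 and Zbtb46 at 0. A neutrophil list of 14 genes summed to 388 to 2105 CPM in the controls and 528 to 1129 CPM with CYR61, with 1 of the 14 at 0. Pf4, which megakaryocytes and macrophages both make, was at 632 CPM.

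Genes outside the rule were compared on counts summed per library and class, with the library as a block and the 18 genes left out. Control libraries 1, 2 and 3 and CYR61 libraries 1, 2 and 4 had at least 10 replication-gene cells and entered; values per library are given in that order. Fold changes are on edgeR's TMM scale and levels in plain CPM. Against cells with none of the 18 genes, 90 of 6172 genes (1.46%) had an adjusted p under 0.05 in edgeR's quasi-likelihood test, 14 higher (0.227%) and 76 lower (1.23%) in replication-gene cells. The count fell to 40, 51 and 39 genes without CYR61 library 1, 2 or 4, the libraries with most cells, and was 4 in the controls alone. It was 10 with the library left out of the model.

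Few genes of the replication machinery outside the rule passed that test, and those that did were higher in replication-gene cells. Both classes were chosen by replication and mitotic genes. The direction of other genes of these programmes was thus not independent of the rule, here and in deeper cells. Mcm4, a subunit of the same helicase as Mcm3, Mcm5 and Mcm6 (chr16:15623897-15637400, minus strand), stood at 25.5, 187 and 25.9 CPM in the controls and 49.8, 66.1 and 19.2 CPM with CYR61, against 6.40, 0 and 10.6 CPM (controls) and 18.8, 22.9 and 12.4 CPM (CYR61) in cells with none of the 18 genes. Its level was higher in the replication-gene cells of each of the 6 libraries, though the 2 ranges overlapped, and control library 2 stood far above the rest on 13 UMIs. Its log2 fold change was 1.31 ± 0.31 (SE, adjusted p = 0.00747), and in the 3 CYR61 libraries alone it was 1.14 (adjusted p = 0.00820). Rfc1, the large subunit of the complex that loads the PCNA clamp (chr5:65261850-65335670, minus strand), stood at 135, 201 and 227 CPM in the controls and 188, 156 and 163 CPM with CYR61, against 96.0, 92.2 and 84.6 CPM (controls) and 75.1, 83.2 and 91.3 CPM (CYR61). Here every replication-gene value lay above every comparison value, and the log2 fold change was 0.73 ± 0.14 (adjusted p = 0.000702).

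Cyclin D1, Ccnd1, which M-CSF induces and which drives cells through G1 (chr7:144929931-144939925), stood at 92.8, 546 and 324 CPM in the controls and 354, 486 and 284 CPM with CYR61, against 80.0, 424 and 201 CPM (controls) and 196, 243 and 83.0 CPM (CYR61) in cells with none of the 18 genes. In plain CPM the replication-gene cells were higher in each library, and on the TMM scale in 5 of 6, control library 1 being the exception; the libraries spread widely in both classes. The log2 fold change was 0.72 ± 0.12 (adjusted p = 6.83e-05), with 0.85 in the CYR61 libraries alone (adjusted p = 8.23e-09) and 0.18 in the controls alone (adjusted p = 0.998). Cdkn1a, the p21 inhibitor of cyclin-dependent kinases, was lower at -0.38 ± 0.10 (adjusted p = 0.0261), although its plain levels, 356 ± 148 and 379 ± 216 CPM, overlapped. Smc2, a condensin subunit, was higher at 0.74 ± 0.21 (adjusted p = 0.0464), with 101 ± 51.4 against 38.7 ± 19.4 CPM. The remaining named increases were in genes with other known roles: Maoa, a monoamine oxidase (log2 0.86), Hpf1, a partner of PARP1 in the DNA damage response (0.68), C5ar1, the receptor of complement C5a (0.55), Hip1, an endocytic adaptor (0.41), and Asph, an aspartyl hydroxylase (0.38). In cells of at least 5000 UMIs Maoa (0.88) and Hip1 (0.38) still passed, while Hpf1 (0.35, adjusted p = 0.377), C5ar1 (0.39, adjusted p = 0.180) and Asph (0.30, adjusted p = 0.103) did not.

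By list, 1 of 7 tested genes of origin licensing and firing rose (Mcm4), with a list median of 0.42, beside a median of 0.00 over all genes tested. Cdt1, the licensing factor that loads the helicase, had a log2 fold change of 0.70 (adjusted p = 0.362) and Gmnn, the inhibitor of Cdt1, 0.06. Of 8 replication fork genes, 1 rose (Rfc1), and the median was 0.45. Chaf1a, which deposits histones behind the fork, stood at 0.92 (adjusted p = 0.335) and Nasp, a histone chaperone, at 0.70 (adjusted p = 0.0838). None of 9 nucleotide synthesis genes, 3 histone genes, 2 repair genes or 12 ribosome biogenesis genes passed. None of 16 genes of chromatin in dividing cells passed either, although 15 of them had positive values and the median was 0.28. In the order given these lists hold 19, 30, 19, 52, 22, 22 and 22 genes, and members too low to be tested are not counted. Summed over all 19 genes, the licensing list stood at 320.2, 1193 and 492 CPM in the controls and 535, 599 and 372 CPM with CYR61 in replication-gene cells, 214 to 386 CPM in cells with none of the 18 genes and 542 to 1225 CPM in the mitotic class. The replication fork list of 30 genes stood at 708, 1467 and 926 CPM in the controls and 904, 965 and 886 CPM with CYR61, 465 to 627 CPM and 1091 to 1876 CPM respectively.

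Deeper cells were also compared. Among cells of at least 5000 UMIs, 240 replication-gene cells were set against 381 cells with at most 1 of the 18 genes in 4 libraries (control 1, CYR61 1, 2 and 4), an alternative chosen after the depth difference had been seen. The replication-gene cells were still deeper there, at a median of 13804.5 against 7987 UMIs, and the comparison class and the libraries differ from those above, so the effect of depth alone cannot be told apart. This gave 24 of 8342 genes higher (0.288%) and 57 lower (0.683%). By list, 1 of 9 licensing genes (median 0.54), 3 of 16 fork genes (median 0.54), 1 of 13 nucleotide synthesis genes (median 0.21), 1 of 6 repair genes (median 0.58), 3 of 18 chromatin genes (median 0.32) and 2 of 10 mitosis genes (median 0.26) rose, and none fell. The increases, of which those named were chosen after their values were seen, included Pola1, the catalytic subunit of the primase-polymerase that starts each strand (log2 1.86, adjusted p = 0.000690), Chaf1a (1.54), the ribonucleotide reductase subunit Rrm1 (1.14), the maintenance methyltransferase Dnmt1 (0.75), the checkpoint scaffold Topbp1 (0.71) and Nasp (0.65). Genes of other roles rose too, such as Olfm1 (1.51), Il1rn (0.83) and the folate receptor Folr2 (0.72). Ccnd1 (1.11), Mcm4 (0.97) and Smc2 (0.72) passed as before, while Rfc1 did not (0.31, adjusted p = 0.408). Of the 90 genes called over all depths, 47 were called here too and 86 had the same direction. Against all other kept cells, mitotic ones included, 73 genes were called, 19 of them among the 90. There Smc2 was lower (-0.66), and Mcm4 (0.46, adjusted p = 0.484), Rfc1 (0.14, adjusted p = 0.982) and Hpf1 (0.07) did not pass.

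Of the 76 genes lower in replication-gene cells, 9 were on the mature macrophage list, 8 on the lysosomal list and 5 on the neutrophil list. Fth1, the ferritin heavy chain that stores iron, stood at 6716, 8267 and 5379 CPM in the controls and 5974, 6551 and 7692 CPM with CYR61, against 20527, 12202 and 10294 CPM (controls) and 9446, 11200.1 and 18098 CPM (CYR61) in cells with none of the 18 genes, with no overlap and a log2 fold change of -1.21 ± 0.12 (adjusted p = 2.17e-11). The ferritin light chain Ftl1 (-1.06), lysozyme Lyz2 (-0.88), galectin-3, Lgals3 (-0.82), the lipid carrier Apoe (-0.77), the fatty acid binder Fabp5 (-0.78) and the inhibitory Fc receptor Fcgr2b (-0.77) were lower as well. Of 25 mature macrophage genes, 9 fell and 0 rose (median -0.21), among them the complement genes C1qa, C1qb and C1qc and Spp1 (-0.57). The receptor Csf1r (-0.00) and Adgre1 (-0.06) did not pass, at 406 ± 53.0 and 491 ± 119 CPM in the comparison cells. Of 26 lysosomal genes, 8 fell (median -0.18), among them the proteases Ctsl (-0.61), Ctsd (-0.53) and Ctsb (-0.49) and the proton pump subunit Atp6v0d2 (-0.45). The signalling adaptor Tyrobp (-0.47) fell, and Syk, Nfkb1, Pdgfa and Pdgfb, the genes of the series' title, did not pass (-0.05, 0.12, 0.17 and 0.20).

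Neutrophil transcripts and 18S ribosomal RNA were lower too. Of 6 tested neutrophil genes 5 fell, with a list median of -1.39: the calprotectin subunits S100a9 (-2.01) and S100a8 (-1.54), Lcn2 (-1.74), Ngp (-1.23) and the G-CSF receptor Csf3r (-0.83). The 18S ribosomal RNA gene Rn18s (-1.70) and Mir6236 and Lars2 (-1.69 and -0.97) fell, as did the actin-binding thymosin Tmsb4x (-0.74). Ribosomal RNA copies are repeated in the genome, so the assignment of those reads to a gene symbol is uncertain. Depth and the mitochondrial share moved with all of these values. The median share of ribosomal protein UMIs was higher in replication-gene cells, at 1.12% against 0.923%, in 6 of 6 libraries. In cells of at least 5000 UMIs the decreases were smaller: Rn18s -0.55, Mir6236 -0.60, Fth1 -0.57, Lyz2 -0.55, Lgals3 -0.35 and Apoe -0.54, with 7 of 25 macrophage genes and 7 of 27 lysosomal genes lower. No neutrophil gene of 7 passed there (median 0.17). In cells of 2000 to 6000 UMIs, Rn18s was at -0.08 (adjusted p = 0.581), Mir6236 at -0.17 (adjusted p = 0.651), Ftl1 at -0.07, Fth1 at -0.21 (adjusted p = 0.0355), Lyz2 at -0.15, Lgals3 at -0.02 and Ctsl at -0.04, and 1 of 24 macrophage genes fell. Apoe (-0.44) and Atp6v0d2 (-0.48) also passed in that band, which held CYR61 libraries 1 and 2 and no control library. Lars2, Tmsb4x and Spp1 (0.08 each) and Cdkn1a (0.03) lost their negative sign there.

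Against the mitotic class, the other cycling cells of the culture, replication-gene cells differed in more genes and mostly by lower values. Of 6956 genes, 234 (3.36%) passed, 40 higher (0.575%) and 194 lower (2.79%). The library medians of depth were 11442 ± 7111 and 9938 ± 6682 UMIs (SD, n = 6, exact sign-change test p = 0.312), higher in replication-gene cells in 4 of 6 libraries, among them the largest, CYR61 1 (11869 against 8353) and CYR61 2 (9619 against 5760.5). The mitotic class was chosen by mitotic genes, so the direction of other mitosis genes was set by the rule and is a description. All 28 tested genes of a mitosis list outside the rule were lower in replication-gene cells, with a median of -3.51. Hmmr, a spindle assembly factor, stood at 0, 0 and 0 CPM in the controls and 1.81, 3.65 and 13.4 CPM with CYR61 and 100.5, 109 and 35.2 CPM (controls) and 169.6, 129.9 and 106 CPM (CYR61) in the mitotic class. The kinesins Kif4 (-4.25), Kif15 (-3.97) and Kif23 (-3.78), the condensin subunit Ncapg (-4.16), Anln of the cleavage furrow (-4.09) and Ndc80 of the kinetochore (-3.61) lay in the same range. Cdk1, the kinase that starts mitosis, was at -2.66.

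Replication genes outside the rule were lower in replication-gene cells than in the mitotic class as well. The rule placed 342 cells with at least 3 replication genes in the mitotic class. These differences, and those of the licensing, repair, G1 to S and chromatin genes below, are thus not independent of the choice of cells. Rrm1, the large subunit of ribonucleotide reductase (chr7:102441695-102469771), stood at 23.2, 14.4 and 58.3 CPM in the controls and 37.1, 70.8 and 24.9 CPM with CYR61, against 104, 149 and 87.9 CPM (controls) and 233, 225 and 113 CPM (CYR61) in the mitotic class. No replication-gene value reached any mitotic-class value, and the log2 fold change was -2.02 ± 0.18 (adjusted p = 9.62e-10). Clspn, claspin, which carries the checkpoint signal at stalled forks, stood at 4.64, 0 and 32.4 CPM in the controls and 11.8, 20.8 and 3.83 CPM with CYR61, against 44.2, 45.5 and 205 CPM (controls) and 119, 117 and 55.5 CPM (CYR61), again with no overlap (log2 -2.87 ± 0.22, adjusted p = 1.09e-10). Of 18 fork genes 8 fell and 0 rose (median -0.81), among them the histone chaperone Asf1b (-3.15), DNA ligase Lig1 (-1.46) and the fork anchor Wdhd1 (-1.21). Of 13 nucleotide synthesis genes 7 fell (median -0.44), among them thymidine kinase Tk1 (-2.21) and deoxycytidine kinase Dck (-0.78).

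The licensing genes showed a mixed picture. Of 11 tested, 5 fell (median -0.61): the helicase subunit Mcm7 (-1.38), Gmnn (-1.20), the kinase activator Dbf4 (-1.15) and the GINS subunits Gins2 (-0.79) and Gins4 (-0.68). Mcm4 (-0.36, adjusted p = 0.553), Mcm2 (-0.61), Cdt1 (-0.15) and Orc2 (0.04) did not pass. Cdt1 stood at 60.0 ± 55.5 CPM in replication-gene cells and 53.1 ± 11.0 CPM in the mitotic class, and Mcm4 at 62.2 ± 63.6 and 58.9 ± 26.1 CPM. Among the proteins that repair forks, 8 of 10 fell (median -1.30), among them the helicase Blm (-2.20).

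Regulators of the G1 to S step fell in 8 of 19 cases and rose in 0 (median -0.50). E-type cyclins, which fire S phase with Cdk2, were lower: Ccne2 (-2.15, 37.3 ± 47.8 against 124 ± 109 CPM) and Ccne1 (-1.97). The repressor E2f8, itself an E2F target, stood at -2.72, E2f2 at -1.65 and the inhibitor Cdkn2d at -1.85. Cdkn1a was lower in replication-gene cells here too (-0.50 ± 0.09, adjusted p = 0.000267), at 513, 316 and 201 CPM in the controls and 243, 299.9 and 566 CPM with CYR61, against 731, 432 and 317 CPM (controls) and 365, 402 and 804 CPM (CYR61). Its levels overlapped between the classes and were lower in replication-gene cells within libraries. Ccnd1 did not pass (0.20), nor did Cdk4, Cdk6 or Rb1. Of 19 chromatin genes 11 fell (median -0.67), among them the Polycomb methyltransferase Ezh2 (-1.56), the heterochromatin protein Cbx5 (-1.33), Atad2 (-1.58) and the lamina protein Tmpo (-1.61). Among 5 tested genes of the histone list, H2bc4 (0.56) and H2aw (0.88) rose and H1f4 (-2.02) and the histone mRNA binder Slbp (-0.84) fell. Histone genes resemble each other in sequence, so their reads may be shared between copies.

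**Figure D4:**
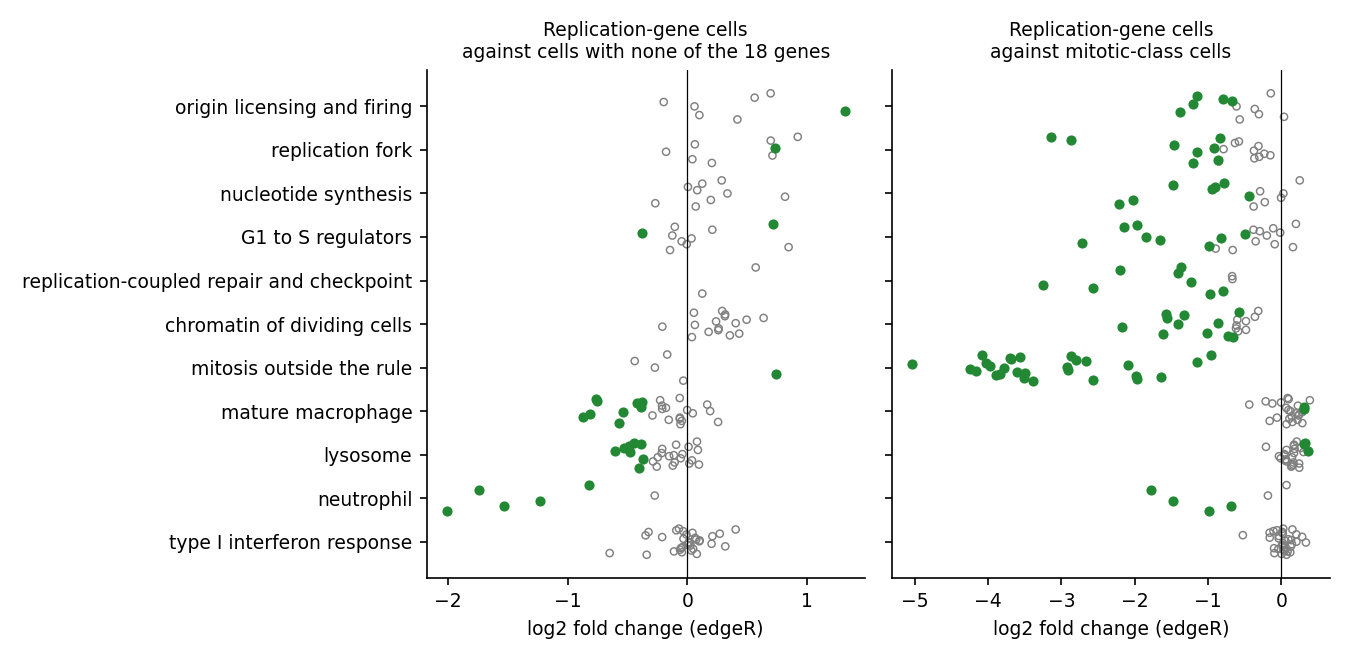
Log2 fold change (edgeR) of each tested gene in 11 gene lists, replication-gene cells against cells with none of the 18 genes (left) and against mitotic-class cells (right), with the points of a list spaced vertically in the order of their names. Filled green points had an adjusted p under 0.05, open grey points did not, and the line marks 0. On the left 9 of 25 mature macrophage genes are filled below 0, and on the right all 28 mitosis genes.

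Genes higher in replication-gene cells than in the mitotic class were fewer and changed less. The integrin ligand fibronectin, Fn1, was at 1.20 ± 0.23 (adjusted p = 0.000659), with 74.3 ± 41.3 against 37.9 ± 10.4 CPM. Cd200, a surface glycoprotein that restrains myeloid cells, was at 1.03, with 262, 57.5 and 129 CPM (controls) and 45.2, 38.5 and 173 CPM (CYR61) against 86.4, 62.2 and 17.6 CPM (controls) and 26.0, 27.0 and 80.7 CPM (CYR61), and overlapped; on the TMM scale it was higher in 6 of 6 libraries, in plain CPM in all but control library 2. Neat1, the scaffold RNA of paraspeckles (0.64), the integrin Itgax (0.57), the RNA binder Igf2bp2 (0.56), the kinase Csnk1e (0.67), the chaperone partner Bag3 (0.64) and the transcription factors Junb (0.51) and Atf3 (0.36) followed. The peroxiredoxin Prdx1 (0.40) and the chaperone Hspa5 (0.36) also rose. Of 25 mature macrophage genes 2 rose, the tetraspanins Cd63 (0.30) and Cd9 (0.30), and of 26 lysosomal genes 3, namely Ctsl (0.36), Atp6v0d2 (0.33) and Cd63. Csf1r (0.09) and Adgre1 (0.08) did not pass. Of 6 neutrophil genes 4 fell, and the chemokine Ccl2 (-1.51) and Chil3 (-1.33) were lower as well. The count of 234 fell to 115 and 112 without CYR61 library 1 or 2 and was 20 in the controls alone, and in cells of at least 5000 UMIs 228 of the 234 were called. In the band of 2000 to 6000 UMIs, with CYR61 libraries 1 and 2 alone, 7 genes passed.

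Among the replication-gene cells themselves, those with 4 or more of the 8 replication genes also held more of the replication genes that the rule did not use. Summed over all such cells, the licensing list stood at 670 CPM in cells with 4 or more and 434 CPM in cells with 3, the fork list at 1135 and 767 CPM, the nucleotide synthesis list at 895 and 712 CPM and the repair list at 498 and 330 CPM. The mature macrophage list went the other way, at 47542 and 49713 CPM. By mitotic genes, cells with 0, 1 and 2 of the 10 held 514, 476 and 586 CPM of the licensing list and 651, 656 and 750 CPM of the mitosis list. Cells with more genes were deeper, with medians of 8670, 9990 and 13546 UMIs for 0, 1 and 2 mitotic genes, and these sums over cells are a description with no test.

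Genes of the type I interferon response rose with CYR61 in replication-gene cells. Interferon-stimulated genes encode antiviral effectors and the sensors and transcription factors that amplify the response, Irf7 among them. In the test of CYR61 against control within the 3 and 3 libraries, 37 of 6730 genes (0.550%) passed and all 37 were higher with CYR61. Of 33 tested genes of the interferon list 20 rose, all 33 had positive values and the median log2 fold change was 2.65, beside 0.00 over all genes tested. The CYR61 libraries all lay above the controls for each of the 33; the groups did not overlap for 12.7% of all genes tested, and for 7.67% with CYR61 higher. The 39 genes of the list together stood at 1288, 1366 and 1094 CPM in the controls and 5993, 5046 and 11194 CPM with CYR61, so that CYR61 library 4 was highest and every CYR61 library lay above every control. That the protein raised interferon genes in the culture as a whole was known when this list was chosen.

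The calls rest on few control cells, 19, 10 and 14. Without control library 1 only 3 genes passed and none of 37 interferon genes (median 2.90), and without control library 3 none of any kind did (448 genes at an unadjusted p under 0.05, median of 37 interferon genes 2.85). The count was 18 without control library 2 and 89 without CYR61 library 4, and with every barcode counted in every library no gene passed (236 at an unadjusted p under 0.05), at an interferon median of 1.72. DESeq2 called 52 genes on the same 6 libraries, 25 of the 33 interferon genes among them.

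Interferon-induced genes had the largest fold changes of the named genes. Mx1, a gene of the Mx GTPase family (chr16:97447035-97462907), had no UMI in the replication-gene cells of the 3 control libraries. With CYR61 its RNA stood at 95.0, 57.8 and 188 CPM. That was at least 19.3-fold higher, with 3 counts taken as the floor over the control group. Ifi44, an interferon-induced protein, also had 0 control counts and 181 with CYR61, at least 11.1-fold higher. Ifit3, which binds foreign RNA, had 2 and 371 counts, a ratio of 34.3 (95% counting interval 9.42 to 284), the GTPase Gbp3 had 1 and 196 (36.2, 6.42 to 1437) and Ifi47 had 3 and 237 (14.6, 4.93 to 71.2). Ifit2 stood at 13.9, 14.4 and 19.4 CPM in the controls and 487, 329 and 1685 CPM with CYR61 (log2 5.74 ± 0.73, adjusted p = 0.00402). Isg15, a ubiquitin-like modifier, stood at 2.32, 71.9 and 45.3 CPM in the controls and 266, 207 and 506 CPM with CYR61 (log2 3.79 ± 0.69, adjusted p = 0.0221). For Ifit2 and Isg15, CYR61 library 4 held the highest value and the groups did not overlap.

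Among the regulators, Irf7, which amplifies interferon production, stood at 32.5, 71.9 and 6.47 CPM in the controls and 212, 184 and 826 CPM with CYR61 (log2 3.71 ± 0.71, adjusted p = 0.0337). Oasl2 of the oligoadenylate synthetase family (3.06), the antiviral enzyme Rsad2 (3.22), Cmpk2 (3.81), Ddx60 (3.12) and Ifit1 (4.14) passed with the groups apart. Fcgr1, the high-affinity IgG receptor of macrophages, was the only mature macrophage gene of 25 to pass, at 144, 144 and 117 CPM in the controls and 469, 425 and 642 CPM with CYR61 (log2 1.93 ± 0.26, adjusted p = 0.00511). Il1rn, the interleukin-1 receptor antagonist, stood at 34.8, 43.1 and 25.9 CPM in the controls and 176, 144 and 243 CPM with CYR61 (log2 2.49 ± 0.36, adjusted p = 0.00568). Other genes that passed came from families of near-identical copies, such as Ifi203, Ifi204, Ifi207 and Ifi209 and Ms4a6b, Ms4a6c and Ms4a6d, whose counts may be shared between members.

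**Figure D5:**
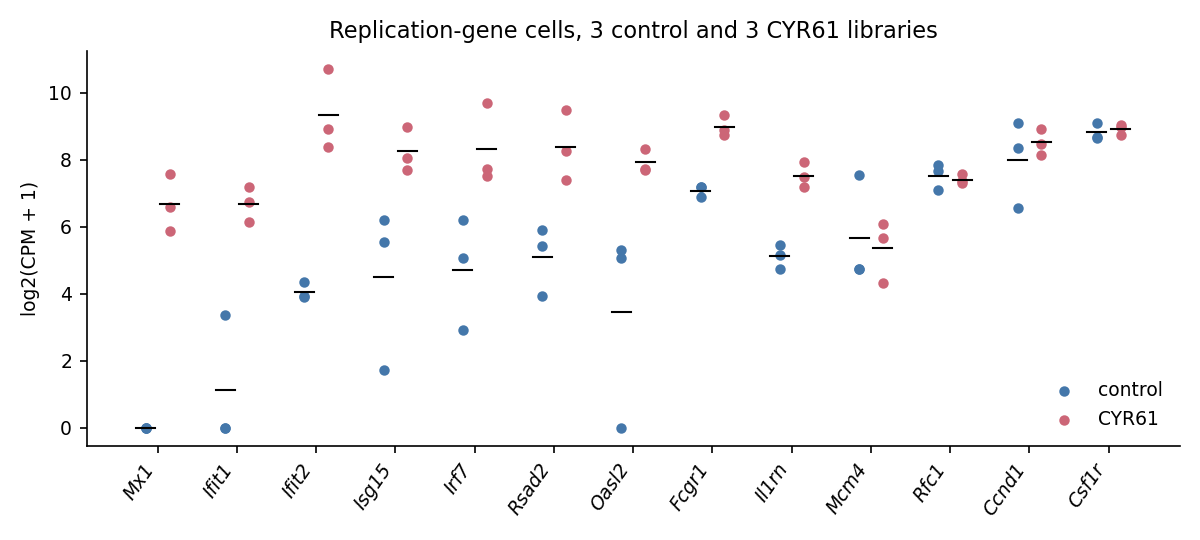
Level on a log2(CPM + 1) scale (vertical axis) of 13 genes in the replication-gene cells of 3 control (blue) and 3 CYR61 (red) libraries, 1 point per library, with the mean of the log values as a bar. The groups do not overlap for the 9 genes from Mx1 to Il1rn, of which 7 are interferon-response genes, and overlap for Mcm4, Rfc1, Ccnd1 and Csf1r.

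No gene of the replication and cell cycle lists passed between CYR61 and control in these cells. That held for 10 licensing, 15 fork, 12 nucleotide synthesis, 14 G1 to S, 5 repair, 16 chromatin and 8 mitosis genes, with list medians between -0.29 and 0.07, and for the 6 tested replication genes of the rule (median 0.00, not independent of the choice of cells). Mcm4 was at -0.12, Ccnd1 at 0.42 ± 0.47 (adjusted p = 0.972) with 321 ± 227 and 375 ± 103 CPM, Cdkn1a at 0.06 ± 0.35 and Mki67 at 0.63 ± 0.63. The standard errors of Ccnd1 and Mki67 were about as large as the values, so a difference of that size was not detectable with these numbers of cells. Csf1r (0.09 ± 0.22) and Adgre1 (0.44 ± 0.22) did not pass. Of 18 genes of PDGF, SYK and NFκB signalling none passed: Pdgfa -0.66 ± 0.48, Pdgfb 0.38 ± 0.44, Syk 0.20 ± 0.24 and Nfkb1 0.49 ± 0.32. Pdgfb stood at 32.5, 57.5 and 19.4 CPM in the controls and 41.6, 40.6 and 42.2 CPM with CYR61, and the CYR61 values lay within the control range. For Nfkb1 and Adgre1 every CYR61 library lay above every control, as for 7.67% of all genes tested.

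Antigen presentation and neutrophil genes had values of 1 sign without passing the test. Cd74, H2-Aa and H2-Ab1 of MHC class II all had positive values (median 2.29) with the groups apart, at 97.7 ± 23.3 and 190.1 ± 51.8 CPM for Cd74, 6.64 ± 6.48 and 56.7 ± 16.2 CPM for H2-Aa and 11.3 ± 10.5 and 75.7 ± 47.0 CPM for H2-Ab1 (control and CYR61, SD, n = 3); 7.67% of all genes tested lay apart in that direction. All 6 tested neutrophil genes had negative values (median -1.11), but the summed list of 14 genes overlapped, at 2105, 863 and 388 CPM in the controls and 598, 528 and 1129 CPM with CYR61, with the lowest value in a control.

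Whether CYR61 acted differently in replication-gene cells than in cells with none of the 18 genes was tested as an interaction of class and protein, in which 3 of 7255 genes (0.0414%) passed, 1 with a positive value (0.0138%) and 2 with a negative one (0.0276%). None of 35 interferon genes did, and their median difference was -0.17. The summed interferon list stood at 896, 829 and 730.0 CPM in the controls and 5341, 4619 and 8771 CPM with CYR61 in cells with none of the 18 genes. Il1rn passed with an interaction of 2.79 ± 0.42 on the log2 scale (adjusted p = 2.28e-06): the comparison cells stood at 83.2, 589.8 and 42.3 CPM in the controls and 78.5, 70.7 and 176 CPM with CYR61, so that control library 2 was the highest of all and the groups overlapped there, while in replication-gene cells they were apart. S100a9 (-1.74 ± 0.27, adjusted p = 6.00e-06) stood at 392, 359 and 77.7 CPM in the controls and 120.3, 31.2 and 220.5 CPM with CYR61 in replication-gene cells and 554, 55.3 and 402 CPM (controls) and 420.1, 329.6 and 881 CPM (CYR61) in the comparison cells, and S100a8 (-1.31 ± 0.28, adjusted p = 0.0208) at 246, 144 and 117 CPM (controls) and 95.0, 30.7 and 153 CPM (CYR61) and 333, 36.9 and 179.9 CPM (controls) and 225, 148 and 485 CPM (CYR61). In both, control library 2 was the lowest of the comparison cells. Among cells of at least 5000 UMIs the values were 1.73 for Il1rn, -1.24 for S100a9 and -0.67 for S100a8. Control library 1 was the only control there, and the comparison cells had at most 1 of the 18 genes. That setting therefore cannot check these calls for depth. DESeq2 called 1 gene over all depths, with a positive value, so neither S100a9 nor S100a8 passed there. In edgeR, 1 gene passed without control library 2, with a negative value, so Il1rn did not. Without control library 3, 10 genes passed.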

How the data were processed

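HIVE single-cell RNA libraries of cultured macrophages, 4 control and 4 CYR61-treated, were analysed. The deposited tables hold raw UMI counts per gene symbol and barcode, 5000 barcodes a library, with genome build mm10 per the submitters' processing notes. How reads were aligned, annotated and assigned to strands, and how barcodes were taken as cells, is not given in the sources used here. Raw counts entered every test as deposited.

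Cells were kept with at least 300 genes, at most 20% mitochondrial UMIs and at least 1000 UMIs, each in the library of its date stamp where it had most UMIs. The members, the gene lists and the tests were chosen with earlier results of these data known. Scrublet marked 36 of 5218 kept cells (0.690%), which were left in. Counts were summed per library and class where a class had at least 10 cells, and tested with edgeR 4.0.16 in R 4.3.3 (TMM factors, filterByExpr, quasi-likelihood test, Benjamini-Hochberg adjusted p under 0.05 over all genes tested), with the library as a block between classes. The procedure was checked on simulated counts. Cell shares, ratios and mitochondrial percentages were tested by exact permutation, two-sided, in scipy 1.17.1, with p adjusted over these 3 tests. Where the control sum was 0, 3 counts over the group served as the floor.

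Named genes had an adjusted p under 0.05 and at least 50 CPM in the higher class or group. Between classes they had the same sign in every library on the TMM scale and were the 12 largest increases and decreases (6 each against the mitotic class); for CYR61 they were the 12 largest each way with groups that did not overlap. Predicted gene models and mitochondrial and ribosomal protein genes were left out there. Up to 4 passing members of each list in each direction, the passing genes of the interaction, the 18 genes of the rule, and Ccnd1, Cdkn1a, Ccne1, Ccne2, Cdk1, Csf1r, Adgre1, Mki67, Pdgfa, Pdgfb, Syk and Nfkb1 were added. Other list members were chosen after their values were seen. Alternatives were DESeq2 1.42.0 and its size factors, no filter on low counts, other cell depths and thresholds, every barcode in every library, a date term and leaving out each library. Promoters were read from RefSeq on GRCm38.p6, which gave 27025 genes. Some genes that met the naming rule are not reported here.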

Additional observations from a re-analysis of the deposited data

Results flagged for a closer look

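In 99 groups of 6 libraries tested, the difference between replication-gene cells and the compared class within a library, on a log2(CPM + 10) scale, stood apart from the other 5 for 10 genes; chance gives about 1 in 20 such groups. Control library 2, with 10 replication-gene cells left after the assignment of barcodes to libraries, was the library that stood apart in 8 of the 10. Against cells with none of the 18 genes it was highest for Mcm4 (4.24, others 0.237 to 1.03), Apoe (0.106, others -1.05 to -0.692) and Ctsd (0.267, others -0.877 to -0.510) and lowest for Csf3r (-2.28, others -0.839 to -0.155). Control library 3, with 14 such cells, was lowest for Ctsl (-1.30, others -0.543 to -0.451). Against the mitotic class, control library 2 was highest for Ccne1 (2.03, others -2.22 to -1.10) and Asf1b (-0.0102, others -2.65 to -1.74) and lowest for H2aw (-2.02, others 0.413 to 1.22) and Fn1 (-2.38, others 0.696 to 1.78), and control library 3 was highest for Cd9 (0.802, others 0.138 to 0.330).

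The interaction test called a different effect of CYR61 in replication-gene cells and cells with none of the 18 genes for Il1rn (2.79), S100a9 (-1.74) and S100a8 (-1.31). These calls depended on the setting. Il1rn did not pass without control library 2, and neither S100a9 nor S100a8 passed in DESeq2. None of them passed with every barcode counted in every library.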

How the results depend on the processing

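Depth, the number of cells and barcodes shared between libraries limit these results: 2 of the 8 libraries had fewer than 10 replication-gene cells and the 3 control libraries that entered had 10 to 19. The difference of 0.101 percentage points in the share of kept cells was -0.493 with cells thinned to 1000 UMIs, -0.0707 with at least 2000 UMIs and -2.26 in the later date alone, and ran from -1.17 to 1.69 with 1 library left out. The log2 ratio to mitotic-class cells, 0.06, was -0.23 in the later date alone and ran from -0.45 to 0.67. The cause of these changes of sign was not tested. With every barcode in every library, the share differed by 1.10 percentage points and the log2 ratio by 0.31. The share differed by 2.46 points in the earlier date alone, more than the SD of either group there (exact permutation p = 0.333, the smallest possible), and the log2 ratio by 1.09 in thinned cells (2 and 3 libraries, exact permutation p = 0.100, the smallest possible). Between classes, the settings of 2000 to 6000 UMIs, thinned cells and at least 4 replication genes held CYR61 libraries 1 and 2 alone. Against cells with none of the 18 genes, 90 genes passed. The count was 29 in cells of 2000 to 6000 UMIs and 19 in thinned cells. It was 4 in control libraries alone, 187 in CYR61 libraries alone and 39 to 115 with 1 library left out. Against the mitotic class, 234 passed; the count was 428 without a filter on low counts, 7 in cells of 2000 to 6000 UMIs, 2 in thinned cells, 411 with at least 4 replication genes, 20 in control libraries alone, 567 in CYR61 libraries alone, 430 in cells of at least 5000 UMIs and 112 to 287 with 1 library left out. For CYR61 within replication-gene cells, 37 passed; the count was 139 without a filter, 0 with every barcode in every library (236 at an unadjusted p under 0.05 in edgeR), 79 with the Xist and Y-linked split as a term (chosen after seeing the data; all 37 were among them) and 0 to 89 with 1 library left out. For the interaction, 3 passed. DESeq2 called 1, every barcode in every library gave 0 (267 at an unadjusted p under 0.05 in edgeR), and leaving out 1 library gave 1 to 10. Cells of at least 5000 UMIs left control library 1 as the only control, so no count is given for them. With DESeq2's size factors the counts were 94, 238, 34 and 3 in the order above.

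Some named genes changed sign. Against cells with none of the 18 genes, thinned cells gave Rfc1 -0.47, Asph -0.30, Ngp 0.092 and Cdkn1a 0.36, cells of at least 5000 UMIs gave Ngp 0.83, S100a9 0.060, S100a8 0.17 and Lcn2 0.24, and cells of 2000 to 6000 UMIs gave Lars2 0.079, Tmsb4x 0.078, Cdkn1a 0.034, Spp1 0.084 and Pf4 0.43. Smc2 was at -0.66 against all other kept cells. Against the mitotic class, thinned cells gave Gmnn 1.24, Atad2 0.038, Cd63 -0.0023, Ctsl -0.079, Hspa5 -0.33 and Cdkn1a 0.10, cells of 2000 to 6000 UMIs gave Lig1 0.71 and Cd9 -0.021, and control libraries alone gave Ngp 0.081. Thinned cells were classed anew, so their classes held other cells than those of the main comparison. The cause of the changes of sign was not tested. In the settings run, 21 of 33 and 51 of 60 named genes kept their sign throughout, as did all 16 for CYR61 and all 3 of the interaction.

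Replicate numbers are shared by the groups in the labels, but only 2 of the pairs had enough cells, and the deviations of same-numbered libraries had r = -0.20 and 0.07, so the numbers were not taken as pairs. With the replicate block, 104 genes passed for CYR61 within replication-gene cells, 36 of the 37 among them. That fit left 1 residual degree of freedom and rested on the 2 pairs, so its count carries little weight. The share and the ratio had an exact permutation p = 1.0 with the replicate block (smallest possible 0.125). With the library block left out, 10 genes passed against cells with none of the 18 genes and 80 against the mitotic class. For CYR61 and the interaction, the settings with 2000 to 6000 UMIs and with at least 4 replication genes were not run, and no paired analysis of the interaction was made beyond its library block.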
